A study of Mus musculus with 2 samples.

Results

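The 10 genes read here belong to the prostaglandin and leukotriene pathways and were followed by symbol through the UMI counts of every cell class in primary tumours and lymph nodes. They are Pla2g4a, Ptgs1, Ptgs2, Ptges, Ptges3, Hpgds, Ptger4, Alox5ap, Lta4h and Ltc4s, which make 10 of the 22620 genes measured, and each was found on 1 row of the gene list. A wider list of 60 pathway genes was read beside them, of which 59 matched a single row, the 10 included.

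The mice were C57BL/6J and their tumours were grown from EO771-HEVM3, a derivative of the mouse breast cancer line EO771 that the study selected in mice for spread through high endothelial venules, the vessels by which lymphocytes enter lymph nodes. The primary tumour group was 1 library and the lymph node group was 1 library of the paired nodes, each pooled from 6 mice, with no label that assigns a cell to a mouse. Both groups carried the same tumour line and no treatment is given in the labels, so neither library is a tumour-free control. After filtering, 8756 primary tumour cells and 9689 lymph node cells were kept, with medians of 9383 and 2324 UMIs per cell. Since each group is 1 library, the differences between them cannot be set against replicates and were not tested. Intervals in the text are 95% intervals that cover counting error only, exact Poisson for CPM, the UMIs of a gene per 1000000 UMIs of a class, and exact for the split of both counts for ratios.

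Prostaglandins and leukotrienes are lipid mediators made from arachidonic acid, which phospholipase A2 frees from membranes. Cyclooxygenases turn it into prostaglandin H2, which terminal synthases convert into prostaglandin E2, prostaglandin D2 and other prostanoids, while 5-lipoxygenase with its activating protein starts the leukotrienes. In tumours, inducible cyclooxygenase of myeloid and stromal cells is a well known source of prostaglandin E2, and leukotrienes are known as products of myeloid cells.

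Cells were grouped by Leiden clustering without the pathway genes and named from marker genes, so each class is called by its closest type. The 6113 tumour cancer-like cells made up 69.8% of the tumour library, the 604 lymph node cancer-like cells 6.23% of the lymph node library, and B cell-like (4613) and T cell-like (3688) cells held most of the lymph node library. Clusters left unnamed held 169 tumour and 98 lymph node cells, which are in no class. The libraries shared 47 cell barcodes, carried by 33 and 44 kept cells. Tumours were digested for longer and with other enzymes than lymph nodes, and this difference cannot be told apart from that between the tissues.

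The promoter windows of the cyclooxygenases and of Ptges are shown because the results on prostaglandin synthesis turn on these 3 genes. They are RefSeq windows of 300 bases on GRCm38.p6, from 250 bases before a RefSeq start, written 5′ to 3′ on the strand of the gene. Promoter windows were found for 9 of the 10 genes. Capitals mark any match, on either strand, to the TATA box written TATAAA, to the E-box written CACGTG, to the GC box written GGGCGG or to TGACG as the core of a cyclic AMP response element.
Ptgs1: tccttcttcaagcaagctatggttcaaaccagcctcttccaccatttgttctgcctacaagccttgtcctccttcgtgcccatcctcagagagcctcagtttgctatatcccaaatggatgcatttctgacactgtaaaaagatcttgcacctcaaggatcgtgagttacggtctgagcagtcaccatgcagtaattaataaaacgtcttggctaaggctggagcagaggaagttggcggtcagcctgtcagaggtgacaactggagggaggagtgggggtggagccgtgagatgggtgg
Ptgs2: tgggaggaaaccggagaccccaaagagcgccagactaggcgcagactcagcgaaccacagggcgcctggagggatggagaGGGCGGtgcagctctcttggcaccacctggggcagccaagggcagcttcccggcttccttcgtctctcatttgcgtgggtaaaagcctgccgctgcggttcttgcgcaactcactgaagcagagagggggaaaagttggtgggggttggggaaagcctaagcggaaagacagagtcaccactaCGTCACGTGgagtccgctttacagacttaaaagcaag
Ptges: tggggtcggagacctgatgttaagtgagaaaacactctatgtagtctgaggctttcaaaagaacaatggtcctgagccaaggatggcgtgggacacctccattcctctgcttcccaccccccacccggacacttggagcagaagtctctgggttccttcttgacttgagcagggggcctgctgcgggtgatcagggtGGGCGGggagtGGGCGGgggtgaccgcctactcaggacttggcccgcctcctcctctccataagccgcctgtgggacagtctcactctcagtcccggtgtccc
The windows lie at chr2:36230176-36230475 (plus strand) for Ptgs1, chr1:150099781-150100080 (plus strand) for Ptgs2 and chr2:30903248-30903547 (minus strand) for Ptges. The RefSeq start of Ptges lies within the GENCODE M21 gene, which runs from 30889471 to 30929863. The Ptgs2 window held 1 GC box 170 bases before the start, and after the start the response element core on the reverse strand, written CGTCA, overlapped the E-box. The Ptges window held 2 GC boxes, 53 and 42 bases before the start, and none of the 4 motifs was in the Ptgs1 window. Over 32817 promoter windows, 13.6% held this TATA box, 7.15% the E-box, 35.6% the GC box and 20.8% the response element core. These matches describe the letters only.

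The cyclooxygenases were highest in different cells, Ptgs1 in cancer-like cells and Ptgs2 in tumour monocyte-like cells. Ptgs1, the constitutive cyclooxygenase (chromosome 2, 36230426 to 36252272, 11 merged exons in GENCODE M21), was highest in the cancer-like cells of both libraries. Its level was 133.5 CPM (131.2 to 135.8; 12966 UMIs) in primary tumour cancer-like cells and 65.3 CPM (61.9 to 69.0; 1325 UMIs) in those of the lymph node. These cells held 98.1% of the Ptgs1 UMIs of the tumour library and 97.4% of those of the lymph node library. Of the kept UMIs of all genes they held 97108318 of 105929106 in the tumour and 20279112 of 50304475 in the lymph node. Next in the tumour came neutrophil-like cells at 40.0 CPM (22.4 to 66.0) and macrophage-like cells at 35.3 CPM (28.6 to 43.1), whose levels did not differ beyond counting error. The 7 cancer markers, 1 of them at 0 in each, summed to 2048 CPM in these neutrophil-like cells and 337 CPM in the macrophage-like cells, against 4363 CPM in tumour cancer-like cells, and their part in these Ptgs1 levels was not tested. In the lymph node the next level was 26.8 CPM on 3 UMIs in monocyte-like cells, not apart from the cancer-like cells beyond counting error, and T cell-like and B cell-like cells lay at 1.02 and 1.33 CPM. At the depths sequenced, 58.0% of tumour and 74.5% of lymph node cancer-like cells had a Ptgs1 UMI, with median depths of 14071 and 35079.5 UMIs. After thinning each cell to 1000 UMIs the shares were 10.3% and 6.46%, against 0.459% of tumour and 0.0946% of lymph node T cell-like cells, whose median depths were 1559 and 2988 UMIs. Tumour neutrophil-like, macrophage-like and fibroblast-like cells had thinned shares of 4.20%, 3.68% and 2.76%, the first with 247 of 310 cells left out. Lymph node monocyte-like cells had 4.15%, with a UMI in 3 of 27 cells.

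Within the cancer-like cells the level of Ptgs1 varied by cluster. The cluster led by Cenpf, a gene of mitosis, had 219 CPM (214 to 224) and the cluster led by Cyp1a1 and Serpinb9b had 187 CPM (177 to 196). The Tff1 cluster had 96.3 CPM and the Slurp1 cluster had 85.1 CPM, and the largest cluster, led by Gpx2 and Cldn4, had 49.5 CPM (46.5 to 52.5). The keratin and ribosomal protein cluster of 166 cells was lowest, at 28.8 CPM (15.3 to 49.2). Ptgs1 was left out of the genes that formed the clusters, though it is among the 10 leading genes of the Cenpf cluster.

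**Figure D1:**
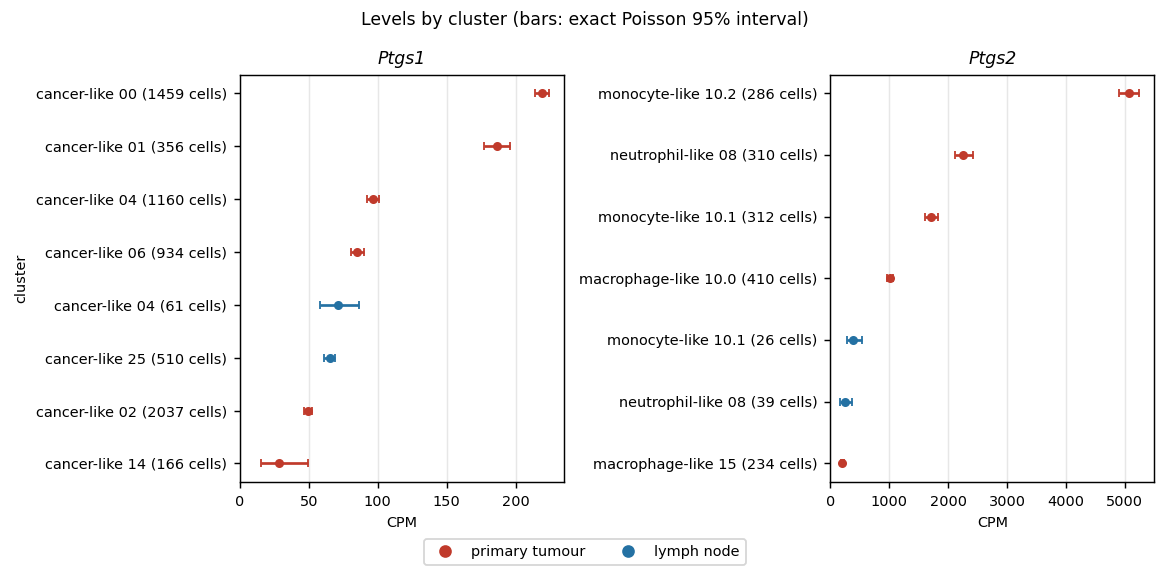
Levels of Ptgs1 in the clusters of cancer-like cells (left) and of Ptgs2 in the clusters of monocyte-like, macrophage-like and neutrophil-like cells (right), as CPM on linear axes that start at 0, with exact Poisson 95% intervals. Ptgs1 is highest in tumour cluster 00 at 219 CPM, and Ptgs2 in tumour monocyte-like cluster 10.2 at 5069 CPM.

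Ptgs2, the inducible cyclooxygenase (chromosome 1, 150100031 to 150108227), was high in tumour myeloid cells and fibroblast-like cells. Its level was 3445 CPM (3341 to 3551; 4178 UMIs) in tumour monocyte-like cells, which held 50.8% of the Ptgs2 UMIs of that library. Neutrophil-like cells followed at 2261 CPM (2112 to 2419), and then macrophage-like cells at 666 CPM (636 to 697) and fibroblast-like cells at 631 CPM (573 to 692), between which the difference was within counting error. In fibroblast-like cells 165 of the 441 UMIs came from 1 cell, and the level without it was 412 CPM. After thinning, a Ptgs2 UMI was found in 62.0% of tumour monocyte-like, 44.7% of neutrophil-like and 30.2% of macrophage-like cells, against 0.363% of tumour cancer-like cells and 0.209% of tumour T cell-like cells. Without thinning these shares were 65.6%, 51.9% and 44.4%, against 3.22% and 0.517%. The neutrophil value rests on the deeper cells, since 247 of 310 had fewer than 1000 UMIs.

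Among tumour monocyte-like cells the cluster led by Tnf, Il1b, Il1a and Ptgs2 itself had 5069 CPM (4894 to 5248), and the Chil3 and Vcan cluster had 1716 CPM (1612 to 1825). The macrophage-like cluster with C1qa and Ccl8 had 1007 CPM, while the Mmp12 and Gpnmb cluster had 205 CPM (180 to 233).

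In the lymph node, Ptgs2 was led by monocyte-like cells at 384 CPM (278 to 517; 43 UMIs in 10 of 27 cells) and neutrophil-like cells at 246 CPM (157 to 366; 24 UMIs in 4 of 39 cells), which did not differ beyond counting error. High endothelial-like cells had 92.1 CPM (78.0 to 108; 151 UMIs), in 33 of 52 cells at a median depth of 31618 UMIs, and held 39.1% of the Ptgs2 UMIs of the lymph node library. Mature dendritic cell-like cells had 81.9 CPM, not apart from these beyond counting error, and other lymph node endothelial-like cells had 29.4 CPM. After thinning, 8.88% of high endothelial-like cells and 2.78% of the other endothelial-like cells had a Ptgs2 UMI, against 0.0765% of T cell-like cells. The thinned shares were 22.1% of monocyte-like and 9.56% of neutrophil-like cells. Conventional and mature dendritic cell-like cells had 5.13% and 3.91%.

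Pla2g4a encodes cytosolic phospholipase A2, which releases arachidonic acid. Its highest levels were 81.5 CPM (61.7 to 106) in tumour fibroblast-like cells, 60.2 CPM (47.2 to 75.7) in monocyte-like cells and 55.0 CPM (46.6 to 64.5) in macrophage-like cells, and neighbours in this order did not differ beyond counting error. The fibroblast-like cluster led by Thbs4 and Cilp had 159 CPM. Cancer-like cells had 0.958 CPM in the tumour and 0.592 CPM in the lymph node. The 3 tumour classes highest in Pla2g4a were among the 4 tumour classes highest in Ptgs2.

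**Figure D2:**
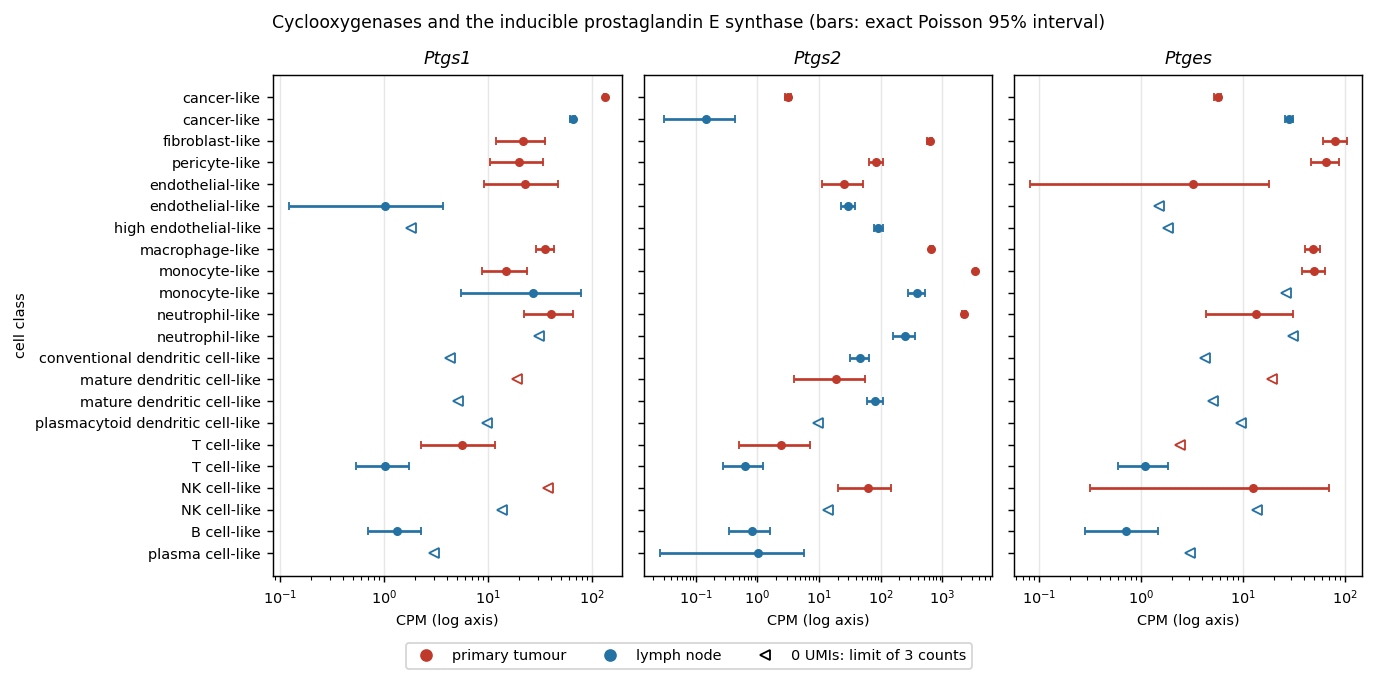
Levels of Ptgs1, Ptgs2 and Ptges in each cell class of the primary tumour (red) and lymph node (blue) as CPM on log axes, with exact Poisson 95% intervals and open triangles at the limit of 3 counts where no UMI was found. Ptgs1 is highest in cancer-like cells, at 133.5 CPM in the tumour, and Ptgs2 in tumour monocyte-like cells, at 3445 CPM.

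The terminal synthases came next. Ptges, the inducible prostaglandin E synthase, had 80.1 CPM (60.5 to 104) in tumour fibroblast-like cells, 65.0 CPM (47.0 to 87.6) in pericyte-like cells, 49.5 CPM (37.7 to 63.7) in monocyte-like cells and 48.4 CPM (40.5 to 57.4) in macrophage-like cells, with no neighbours in this order apart beyond counting error. The Mmp12 and Gpnmb macrophage-like cluster had 97.5 CPM (80.5 to 117) and the C1qa cluster had 12.0 CPM (7.25 to 18.8), the opposite order to Ptgs2. In the lymph node 94.4% of the Ptges UMIs were in cancer-like cells, at 28.3 CPM (26.0 to 30.7; 574 UMIs in 337 of 604 cells), and after thinning 2.63% of them had a Ptges UMI against 0.123% of lymph node T cell-like cells. The cancer-like cells held 20279112 of the 50304475 kept UMIs of all genes in that library. No Ptges UMI was found in high endothelial-like cells, which allows up to 1.83 CPM.

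Ptgs2 and Ptges act in turn on the way to prostaglandin E2. Both were seen in 33 of 598 tumour monocyte-like cells, 29 of 644 macrophage-like cells and 19 of 104 fibroblast-like cells, and after thinning in 3.25%, 1.04% and 2.26%. The thinned shares of Ptgs2 alone were 62.0%, 30.2% and 25.2%, and those of Ptges alone 4.28%, 3.48% and 6.95%. In lymph node cancer-like cells 268 of 604 held Ptgs1 and Ptges, at a median depth of 35079.5 UMIs, and after thinning 0.167% did, beside 6.46% with Ptgs1 and 2.63% with Ptges. Whether any of these pairs shared cells more often than their single shares give was not tested.

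Ptges3, a cochaperone of Hsp90 that is also known as cytosolic prostaglandin E synthase, was found in all 22 classes. It ranged from 92.1 CPM in lymph node neutrophil-like cells to 456 CPM (452 to 460) in tumour cancer-like cells, with 416 CPM (408 to 425) in lymph node cancer-like cells.

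Hpgds, the haematopoietic prostaglandin D synthase, was found mainly in lymph node B cell-like cells, which held 382 of 490 kept UMIs of that library at 38.9 CPM (35.1 to 43.1). The level was 84.4 CPM (65.5 to 107) in a cluster of 100 B cell-like cells, against 31.6, 35.1 and 39.5 CPM in the 3 larger B cell-like clusters. After thinning, 3.31% of B cell-like cells had a Hpgds UMI, against 0.454% of lymph node T cell-like and 0.0495% of lymph node cancer-like cells. In the tumour, neutrophil-like cells had 34.7 CPM (18.5 to 59.3) and macrophage-like cells 22.2 CPM (17.0 to 28.5), which did not differ beyond counting error. Of the 13 neutrophil-like UMIs, 2 were in the 4 cells with more mast cell or basophil than neutrophil marker UMIs. The other 306 cells had 29.7 CPM, and the richest of them, with 3 UMIs, had 0 neutrophil marker UMIs.

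Ptger4, the EP4 receptor for prostaglandin E2, was highest in mature dendritic cell-like cells, at 237 CPM (167 to 326; 37 UMIs) in the tumour and 172 CPM (140 to 210; 101 UMIs) in the lymph node. Tumour monocyte-like cells had 101 CPM (84.3 to 121) and lymph node NK cell-like cells had 91.6 CPM (56.0 to 142). Cancer-like cells had 0.185 CPM in the tumour and 0.394 CPM in the lymph node.

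Alox5ap and Ltc4s, both of leukotriene synthesis, were highest in different myeloid classes, and Lta4h was spread more widely. Alox5ap encodes the 5-lipoxygenase activating protein. Its level was 2099 CPM (1821 to 2407; 205 UMIs in 33 of 39 cells) in lymph node neutrophil-like cells, 1072 CPM (889 to 1282) in lymph node monocyte-like cells and 622 CPM (578 to 668) in tumour monocyte-like cells. Conventional and plasmacytoid dendritic cell-like cells of the lymph node had 465 and 417 CPM, which did not differ beyond counting error, while mature dendritic cell-like cells had 34.1 CPM (20.9 to 52.7). Alox5 itself, the partner of Alox5ap, was hardly detected, with 8 UMIs (21.3 CPM) in tumour neutrophil-like cells as its highest level. Both Alox5 and Alox5ap were seen in 1 of 310 tumour and 1 of 39 lymph node neutrophil-like cells, at median depths of 730 and 1985 UMIs. Both were also seen in 3 of 644 macrophage-like and 1 of 598 monocyte-like cells of the tumour. In the lymph node 1 of 100 conventional dendritic cell-like cells had both.

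Ltc4s, the leukotriene C4 synthase, was a gene of mature dendritic cell-like cells, at 189 CPM (156 to 228; 111 UMIs in 49 of 117 cells) in the lymph node and 89.5 CPM (49.0 to 150; 14 UMIs in 7 of 35 cells) in the tumour. These cells held 88.1% of the Ltc4s UMIs of the lymph node library. With doublets kept the lymph node level was 80.9 CPM (67.5 to 96.2), and plasma cell markers summed to 1499 CPM in these cells. The next level was 16.1 CPM (5.24 to 37.7) in tumour endothelial-like cells. Alox5ap and Ltc4s were in the same cell in 3 of 117 mature dendritic cell-like cells of the lymph node, beside 10 with Alox5ap and 49 with Ltc4s. In tumour macrophage-like cells both were in 9 of 644 cells, beside 365 with Alox5ap and 14 with Ltc4s. Whether the genes shared cells more often than their single shares give was not tested.

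Lta4h, the leukotriene A4 hydrolase that makes leukotriene B4, was spread over all 22 classes, from 5.10 CPM in lymph node plasma cell-like cells to 87.4 CPM (35.1 to 180; 7 UMIs) in tumour NK cell-like cells. Tumour T cell-like cells had 49.1 CPM (37.5 to 63.0) and did not differ from the NK cell-like cells beyond counting error.

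**Figure D3:**
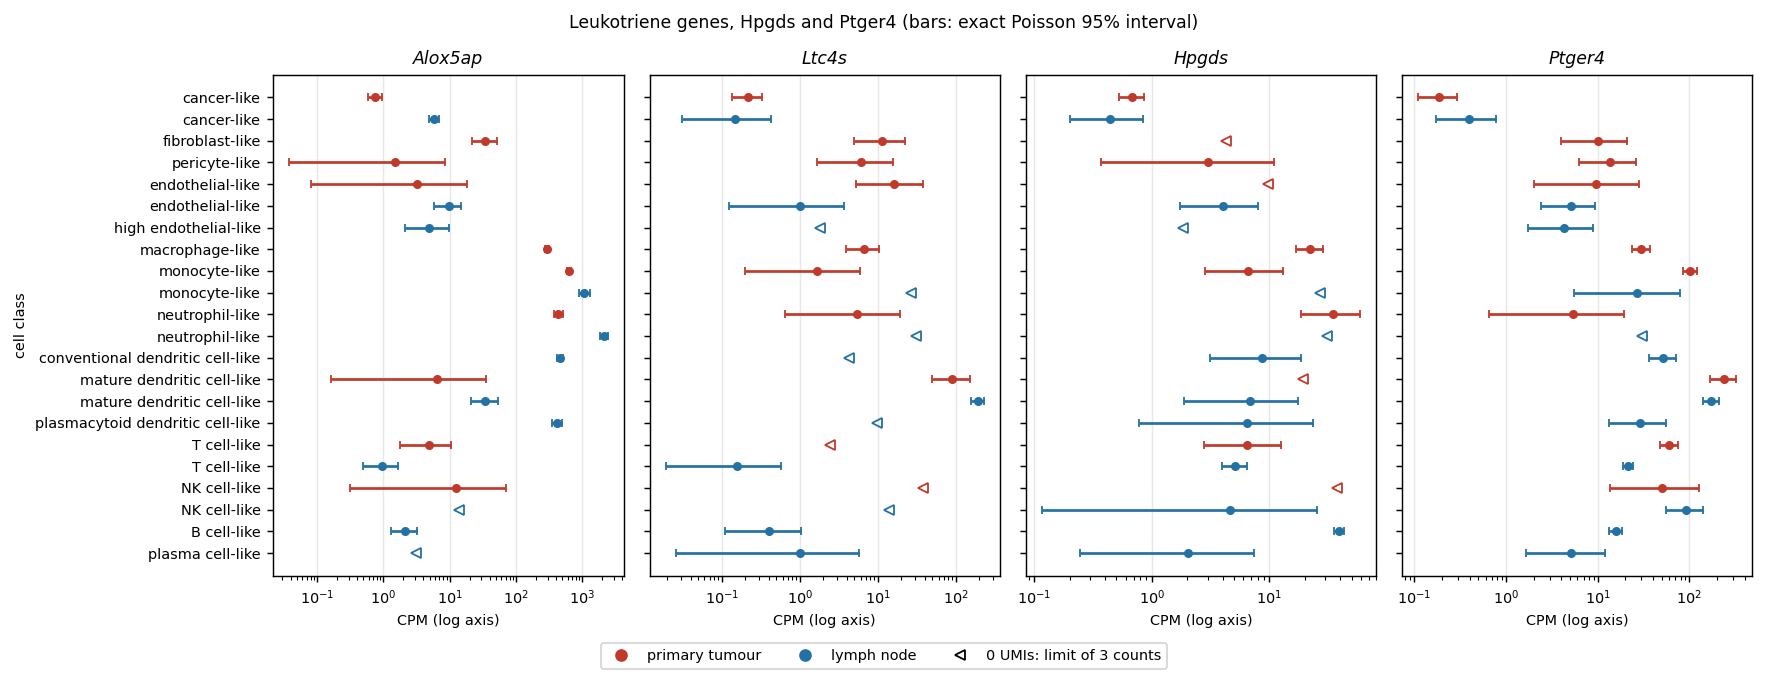
Levels of Alox5ap, Ltc4s, Hpgds and Ptger4 in each cell class of the primary tumour (red) and lymph node (blue) as CPM on log axes, with exact Poisson 95% intervals and open triangles at the limit of 3 counts where no UMI was found. Ltc4s is highest in mature dendritic cell-like cells, at 189 CPM in the lymph node, and Hpgds in lymph node B cell-like cells, at 38.9 CPM.

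Lymph node and primary tumour were then compared within the 7 classes that had at least 20 cells in both. Ratios are given as log2, with lymph node CPM divided by that of the primary tumour and 0.5 count added to each sum, and a gene was read as past 2-fold if it had at least 50 UMIs over the pair.

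In cancer-like cells 4 of the 8 genes with enough UMIs were past 2-fold, while 16.7% of all genes were. Ptgs1 was lower in the lymph node, with a log2 ratio of -1.03 (-1.11 to -0.95), and Ptgs2 was lower, at 0.148 against 3.10 CPM. Ptges was higher, at 28.3 against 5.68 CPM, a log2 ratio of 2.32 (2.14 to 2.49) and a 4.98-fold difference. Alox5ap was higher at 5.87 against 0.752 CPM, on 119 and 73 UMIs. The median log2 ratio of all genes with enough UMIs was -0.16.

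The cancer-like cells of the libraries lay largely in different clusters, since 510 of the 604 lymph node cells were in a cluster led by Tff2 and Krt33b that held 1 tumour cell. In that cluster Ptges was at 30.9 CPM and Alox5ap at 6.46 CPM. The Tff1 cluster was the only cancer-like cluster with at least 20 cells in each library (1160 and 61), and within it Ptges was at 4.28 CPM (1.57 to 9.31) in the lymph node and 4.86 CPM (3.93 to 5.95) in the tumour. There the log2 ratio of Ptgs1 was -0.43 (-0.74 to -0.14), and no Alox5ap UMI was found in the lymph node cells, which allows up to 2.14 CPM. Ptgs2 was lower within this cluster too, with 0 lymph node UMIs against 124 in the tumour and an upper limit of the log2 ratio of -1.27. The 6 neutrophil and 6 monocyte markers, of which 1 and 0 were at 0, summed to 1.59 and 2.85 CPM in the lymph node cells of the Tff2 cluster. There the 8 macrophage markers, 5 of them at 0, summed to 25.1 CPM, the 6 B cell markers to 38.8 CPM and the 6 platelet or megakaryocyte markers, 3 of them at 0, to 166 CPM. Over all cancer-like cells the B cell sum was 38.7 CPM in the lymph node and 3.38 CPM in the tumour, the platelet or megakaryocyte sum 153 and 24.6 CPM, and the macrophage sum 23.4 and 26.2 CPM. The neutrophil sum was 1.48 CPM in the lymph node and 7.12 CPM in the tumour, and the monocyte sum 2.91 and 2.00 CPM. The part of these in the Alox5ap and Ptgs2 levels was not tested.

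In monocyte-like cells 4 of the 6 genes with enough UMIs were past 2-fold, all lower in the lymph node, while 26.1% of all genes were past it. Ptgs2 was at 384 CPM in the lymph node and 3445 CPM in the tumour, a log2 ratio of -3.15 (-3.63 to -2.73). Most of the 27 lymph node cells were in the Chil3 and Vcan cluster, within which the values were 392 and 1716 CPM, a log2 ratio of -2.11 (-2.61 to -1.68). Ptger4 had a log2 ratio of -1.70 (-4.22 to -0.34). Ptges had 0 UMIs in the lymph node against 60 in the tumour, 1.85-fold lower when 3 counts are put in place of the 0. The upper limit of its log2 ratio was -0.54, and Ptges was past 2-fold only through the 0.5 count added. Pla2g4a was past 2-fold with an interval that included no difference (-4.83 to 0.15). Alox5ap was higher in the lymph node, with a log2 ratio of 0.79 (0.50 to 1.07). Within the Chil3 and Vcan cluster the log2 ratios were 0.47 (0.16 to 0.76) for Alox5ap, -1.48 (-4.01 to -0.06) for Ptger4 and -0.78 (-4.20 to 0.95) for Pla2g4a, and the upper limit for Ptges was -0.20. In the class as a whole the 7 cancer markers summed to 44.7 CPM in the lymph node, 5 of them at 0, and to 251 CPM in the tumour, 1 at 0. The 8 macrophage markers summed to 286 and 597 CPM, 4 and 0 of them at 0, and the 6 monocyte markers, none at 0, to 4028 and 1937 CPM. Their part in these differences was not tested.

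In neutrophil-like cells 3 genes had enough UMIs and all 3 were past 2-fold, while 37.1% of all genes were. Ptgs2 was at 246 CPM in the lymph node and 2261 CPM in the tumour (log2 ratio -3.17, -3.85 to -2.62), Alox5ap at 2099 and 435 CPM (log2 ratio 2.27, 1.97 to 2.58) and Ptges3 at 92.1 and 203 CPM. With doublets kept the log2 ratios were -2.33 for Ptgs2 and 2.98 for Alox5ap. Marker levels moved with these values. The 7 cancer markers summed to 92.1 CPM in lymph node and 2048 CPM in tumour neutrophil-like cells, with 3 and 1 of them at 0, and the 6 neutrophil markers, none at 0, to 179662 and 46221 CPM. Their part in the 3 differences was not tested. Of the 39 lymph node cells, 6 had more UMIs of the mast cell or basophil markers than of the neutrophil markers, against 4 of 310 in the tumour. All 8 of those markers were found in both libraries, at a summed 6604 CPM in the lymph node cells of the class and 232 CPM in the tumour cells. Without these cells, chosen after the data were seen, the log2 ratios were -3.29 for Ptgs2 and 2.43 for Alox5ap. A single cell with 2 neutrophil marker UMIs gave 15 of the 24 lymph node Ptgs2 UMIs, and without the cell richest in Ptgs2 in each library the log2 ratio was -4.47.

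The summed level of 8 immediate early genes, a list added after the data were seen, was lower in the lymph node in the 3 classes above, as was Ptgs2. Fos, Fosb, Jun, Junb, Egr1, Ier2, Nr4a1 and Dusp1 summed to 4231 CPM in tumour and 2608 CPM in lymph node monocyte-like cells, and to 9087 and 2867 CPM in neutrophil-like cells. In cancer-like cells the sums were 3010 and 1103 CPM. Not each gene went this way, since Fos was at 245 CPM in tumour and 313 CPM in lymph node monocyte-like cells. In endothelial-like cells, whose clusters also differed, the sum was 5066 CPM in the tumour and 1272 CPM in the lymph node, where Ptgs2 was at 25.8 and 29.4 CPM with an interval of the ratio that included no difference, though 6 of the 8 tumour UMIs came from 1 cell and the tumour level without it was 6.61 CPM. In T cell-like cells it was 1537 and 2567 CPM, with Ptgs2 at 2.41 and 0.629 CPM, in mature dendritic cell-like cells 2098 and 3138 CPM, and in NK cell-like cells 3058 and 3559 CPM. Ptgs2 went the other way from this sum in NK cell-like cells, with 5 UMIs (62.4 CPM), 4 of them in 1 cell, in the tumour and 0 in the lymph node. It also did so in T cell-like cells, where the interval of the log2 ratio (-4.00 to 0.61) included no difference. In mature dendritic cell-like cells Ptgs2 was higher with the sum. The part of the 8 genes in the Ptgs2 differences was not tested.

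In T cell-like cells 1 of the 4 genes with enough UMIs was past 2-fold, while 31.4% of all genes were. This was Ptger4, at 21.5 CPM in the lymph node and 60.3 CPM in the tumour, a log2 ratio of -1.50 (-1.86 to -1.10) beside a median of -0.42 over all genes. Lta4h was at 24.8 and 49.1 CPM, with an interval of the log2 ratio from -1.39 to -0.57. The main cluster of these cells differed, with 502 of 580 tumour cells in a cluster led by Pdcd1 and 1429 of 3688 lymph node cells in a cluster led by Bend4 and Lef1. The 6 NK cell markers, none at 0, summed to 47.2 CPM in the lymph node and 663 CPM in the tumour, and the 7 cancer markers to 72.8 and 326 CPM, 0 and 1 of them at 0. Their part in the T cell-like differences was not tested.

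In mature dendritic cell-like cells 2 of the 4 genes with enough UMIs were past 2-fold, while 16.9% of all genes were. Ltc4s was higher in the lymph node, with a log2 ratio of 1.04 (0.27 to 2.00), but with doublets kept the log2 ratio was -0.10 (-0.80 to 0.76). Ptgs2 was also higher, with 48 UMIs of which 20 were in 1 cell against 3 UMIs in the tumour, all from 1 cell. The 5 plasma cell markers, of which 3 in the lymph node and 4 in the tumour were at 0, summed to 1499 CPM in lymph node and 19.2 CPM in tumour cells of this class, and its own 7 markers to 8459 and 17032 CPM. Their part in these differences was not tested. For Ptger4 the interval of the log2 ratio ran from -1.01 to 0.13. In endothelial-like cells 0 of 2 genes were past 2-fold, while 48.9% of all genes were. On fewer UMIs, Lta4h (48 UMIs) was lower in the lymph node, at 17.3 against 45.2 CPM. Ptgs1 (9 UMIs) was at 1.02 against 22.6 CPM and Ltc4s (7 UMIs) at 1.02 against 16.1 CPM. The intervals of these ratios excluded no difference. All 45 tumour cells of this class were in the cluster led by Gpihbp1 and 122 of the 125 lymph node cells in the cluster led by Glycam1. The 6 pericyte markers, of which 0 in the tumour and 2 in the lymph node were at 0, summed to 1139 CPM in tumour and 10.7 CPM in lymph node cells, and the 8 endothelial markers, none at 0, to 5837 and 1662 CPM. The part of either in values of this class was not tested. In NK cell-like cells 0 of 1 genes were past 2-fold, while 16.0% of all genes were.

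**Figure D4:**
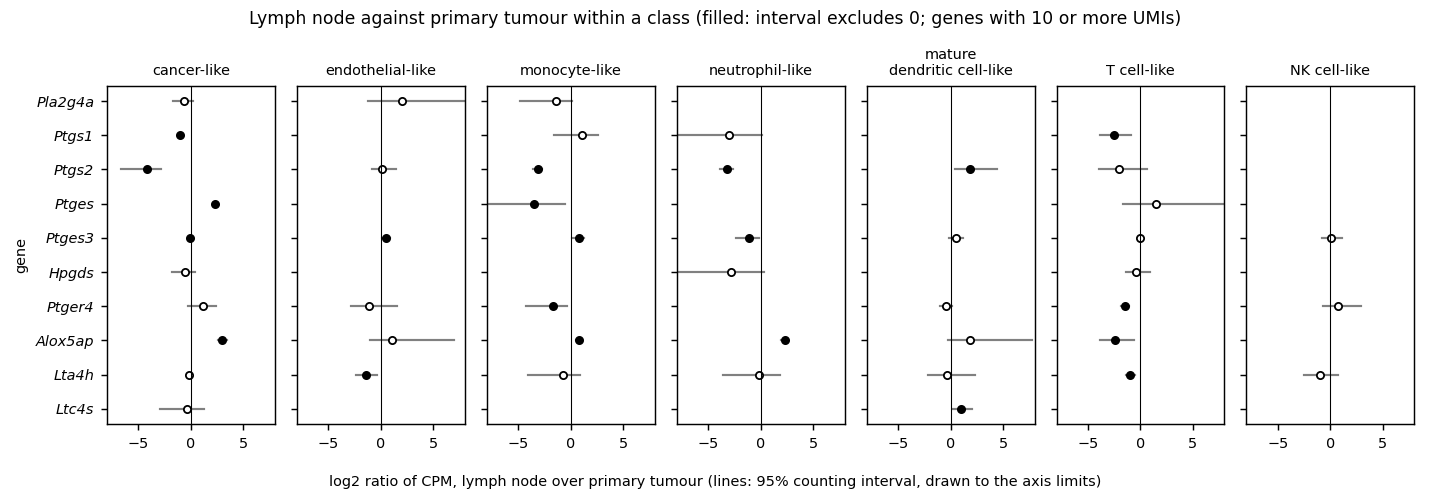
Lymph node CPM divided by primary tumour CPM as log2, for genes with 10 or more UMIs in each of the 7 classes found in both libraries, with 95% counting intervals as lines drawn to the axis limits and filled points where the interval excludes 0. Ptgs2 lies at -3.15 in monocyte-like and -3.17 in neutrophil-like cells, and Ptges at 2.32 in cancer-like cells.

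The other pathway genes were read by role. Of the 59 genes, 14 reached 100 CPM in some class and 13 stayed below 10 CPM in every class, and 30 were highest in a primary tumour class. The shares over all genes were not computed, 10 of the 22 classes were of the tumour, and some highest levels rest on 1 UMI. Of the 17 genes listed as phospholipases and lipases of lipid release, 3 reached 100 CPM. Pla2g7, which breaks down platelet-activating factor and is not known for arachidonic acid release, had 447 CPM (410 to 486) in tumour monocyte-like and 414 CPM in tumour macrophage-like cells. Pla2g16 (named Plaat3 in the gene list), a phospholipase, had 397 CPM (304 to 508) in tumour and 265 CPM in lymph node mature dendritic cell-like cells. Mgll, the monoacylglycerol lipase, had 242 CPM (190 to 303) in tumour endothelial-like cells and 9.14 CPM in those of the lymph node, which lay in different clusters with different marker levels, as given above.

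Among the synthases, Akr1b3, an aldose reductase with prostaglandin F synthase activity, had 193 CPM (174 to 214) in lymph node endothelial-like cells. Of the leukotriene synthesis genes, the microsomal glutathione transferases Mgst3 and Mgst2 had 114 CPM (109 to 118) in lymph node cancer-like cells and 92.1 CPM (42.1 to 175; 9 UMIs) in lymph node neutrophil-like cells. Abcc1, an exporter of leukotriene C4, had 143 CPM (81.7 to 232) in lymph node and 125 CPM (105 to 146) in tumour monocyte-like cells.

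Cyp4f18, which inactivates leukotriene B4, had 517 CPM (447 to 595) in tumour and 348 CPM (241 to 486) in lymph node neutrophil-like cells. Ltb4r1, the high affinity leukotriene B4 receptor, had 174 CPM (101 to 279; 17 UMIs) in lymph node neutrophil-like and 107 CPM (89.6 to 127) in tumour monocyte-like cells.

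Genes with the most similar levels were ranked by Pearson r of log2(CPM + 1) over the 22 classes, among 10328 genes with at least 500 UMIs, as a description in which the classes share libraries and differ in depth. For Ptgs2 these were Cxcl2 (r = 0.94), a neutrophil-attracting chemokine, and Tnfaip2 (r = 0.91). For Ptgs1 they were Zfp503 (r = 0.95) and Rnase4 (r = 0.89), and for Ptges3 they were Nhp2 (r = 0.94) and Pfdn2 (r = 0.89). Ptges was closest to P4ha1 (r = 0.83), a collagen prolyl hydroxylase subunit, and Ak4 (r = 0.82). Alox5ap was closest to Cd300a and Cd300c2 (both r = 0.92), and Ltc4s to Pdlim4 (r = 0.88) and Tmcc3 (r = 0.81). Pla2g4a was closest to Vcan (r = 0.87) and Ifi205 (r = 0.81), Ptger4 to Galnt7 (r = 0.87) and Tmem123 (r = 0.84), Lta4h to Capn1 (r = 0.85) and Cbfb (r = 0.81), and Hpgds to Snx29 (r = 0.73) and Ndst2 (r = 0.68).

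**Figure D5:**
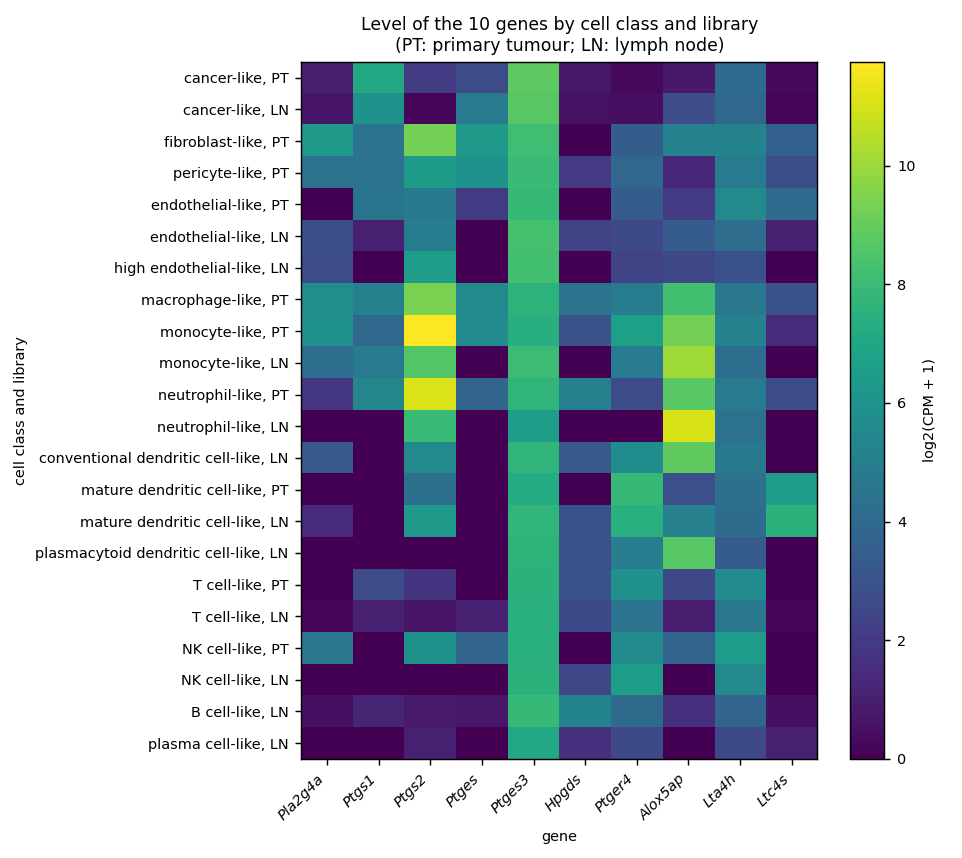
Level of the 10 genes (columns) as log2(CPM + 1) in the 22 combinations of cell class and library with at least 20 cells (rows). Ptges3 is found in every row, whereas Ltc4s is high only in the rows of mature dendritic cell-like cells, at 89.5 CPM in the tumour and 189 CPM in the lymph node.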

How the data were processed

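Droplet-based 3′ single-cell RNA sequencing was made of 1 primary tumour and 1 lymph node library, each pooled from 6 mice. In the deposited files the values are raw UMI counts, which the authors made with Cell Ranger (5.0.0 per the file headers, 2.1.1 in the submitters' processing notes) on GRCm38. The study's limits on cells were applied here, so that a kept cell had more than 200 detected genes, no more than 6000, and 5% mitochondrial UMIs or less. Scrublet (scanpy 1.11.5) marked 391 primary tumour cells as doublets. In the lymph node it marked 0 cells, which was taken as a failure, and 616 cells with a score beyond percentile 94 were left out instead. The deposited libraries held 12427 and 11617 cells with 173317475 and 122207852 UMIs.

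Both libraries were clustered together (Leiden, resolution 1.0, 30 components, 15 neighbours, igraph 0.11.9) without the pathway genes and with the cell cycle lists of Seurat 5.3.0 regressed out. Classes were named from listed markers by a scoring rule set after the data were seen, and high endothelial-like cells needed Glycam1, Chst4 and Fut7 at 300 CPM or more. Levels are CPM of UMIs summed over a class of 20 cells or more, and 3 counts set the limit where none was found. Thinned shares are those expected when 1000 UMIs are drawn from each cell, with shallower cells left out. The code was tested on simulated data. Scripts ran in python 3.11.15 with scipy 1.17.1, pandas 2.3.3, numpy 2.4.6, scikit-learn 1.9.0 and, for figures, matplotlib 3.10.9. The genes and lists were chosen with earlier results of these data known. The text names all 10 genes, the other pathway genes among the 15 with the highest CPM in any class and, for each of the 10, the 2 genes with the most similar levels. Alox5 is named as the partner of Alox5ap. Alternatives changed the limits on cells, doublet removal, clustering, the count added, the scaling, the thinning depth and the richest cell.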

Additional observations from a re-analysis of the deposited data

How the results depend on the processing

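No paired analysis was possible because each group is 1 library and no test was run. Over the alternatives, 202 of 217 values of the 24 ratios whose interval excluded 0 stayed within that interval, and 63 of 79 values of the highest levels stayed within theirs. Of 20 thinned shares at 500 or 2000 UMIs, 12 moved outside the interval at 1000 UMIs, as for Ptgs1 in tumour cancer-like cells (5.37% and 18.8%). At a mitochondrial limit of 10%, without the upper limit on detected genes and as a mean of single-cell CPM, Ptgs1 in tumour cancer-like cells was 136, 149 and 114 CPM and Ptges3 there was 452, 502 and 419 CPM. Ptgs2 in tumour monocyte-like cells was 3801, 3030 and 3220 CPM in the same order, 3074 CPM with each library clustered on its own and 3740 CPM at resolution 2. Ltc4s in lymph node mature dendritic cell-like cells was 139, 127 and 241 CPM in that order and 80.9 CPM with doublets kept, where its log2 ratio turned to -0.10. Pla2g4a in tumour fibroblast-like cells was 60.6 CPM at resolution 2.

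Without the upper limit on detected genes the cancer-like log2 ratios were -1.24 for Ptgs1 and 2.58 for Ptges. In the 1 cancer-like cluster of both libraries, an alternative chosen after seeing the data, they were -0.43 and -0.078, and that of Alox5ap was -1.50 on 0 lymph node UMIs. The signs of the last pair turned, but both intervals included no difference. The monocyte-like Ptgs2 log2 ratio was -2.11 in the main lymph node cluster alone, also chosen after seeing the data. In neutrophil-like cells it was -2.33 with doublets kept and -4.47 without the richest cell, and that of Alox5ap was 2.98 with doublets kept. The causes were not tested beyond the choice of cells that each setting makes. Under some settings fewer than 20 lymph node monocyte-like cells were left, and these gave no ratio. Depth limits the small classes, such as the 29 tumour NK cell-like cells with 80123 UMIs and the 39 neutrophil-like and 27 monocyte-like cells of the lymph node with 97667 and 111964 UMIs.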
